A study of Mus musculus with 10 samples.

Results

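The first transcripts to respond when SOX2 was taken away from mouse embryonic stem cells (mESC) were found by comparing nascent transcription at 0.5 hours post depletion (hpd) with that in cells that were not treated (NT). The comparison rested on 4 of the 10 libraries of a depletion time course, 2 at 0.5 hpd and 2 from NT cells. Of the 40779 transcribed units (TUs) of the study, 28459 held more than 10 fragments in at least 2 of the 10 libraries and were tested. A TU is a stretch of continuous nascent transcription on 1 strand, and for a gene it spans exons and introns together.

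The cells were of the E14 mESC line with the genotype SOX2-FKBP, in which the endogenous SOX2 protein carries an FKBP degradation tag. Homozygous clones that responded to the drug were picked, per the methods of the study, and how many clones gave these libraries is not given in the sources used here. Cells at 0.5 hpd had received 500 nM dTAG-13, a small molecule that sends the tagged protein to the proteasome, for 0.5 h, and NT cells had received DMSO. All groups, NT included, carried the tag, grew in serum-free medium with LIF, 1 µM of the MEK inhibitor PD0325901 and 3 µM of the GSK3 inhibitor CHIR99021, and received a pulse of 10 min with 2 mM 4-thiouridine. Untagged cells given dTAG-13 were not analysed here, so that effects of the drug and of SOX2 loss cannot be told apart. Nothing in the labels says that the replicates of a group were separate cultures, and p-values then measure the spread between these libraries, which may be technical.

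SOX2 is a transcription factor with an HMG box that opens chromatin, often together with the POU factor OCT4, and it keeps the gene network of pluripotency active. It occupies enhancers and promoters, and many such sites are themselves transcribed into short-lived non-coding RNA. TT_chem-seq reads RNA made during a brief pulse of 4-thiouridine, so that a change in synthesis is seen before the pool of stable mRNA has moved, and transcripts outside genes are read along with genes.

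Sox2 was transcribed at 243 and 283 CPM (counts scaled to a common library size with TMM factors) in the NT libraries and at 248 and 275 CPM at 0.5 hpd, and its log2 fold change was -0.01 ± 0.11 (SE). The groups overlapped. The drug removes protein, which these libraries do not read, and the Sox2 TU therefore does not check the depletion. The 4 libraries held 14420634 and 13053099 fragments (NT) and 25854106 and 11131490 fragments (0.5 hpd). The mESC label was borne out by 8 marker genes, among them Pou5f1, Nanog and Esrrb, which summed to 3368 to 3892 CPM in the 4 libraries. Neural markers summed to 40.2 to 45.8 CPM, mesoderm and endoderm markers to 20.6 to 24.5 CPM and fibroblast markers to 2.19 to 3.05 CPM. In bulk libraries, fewer cells of a type and less RNA per cell cannot be told apart.

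The sequences at which some of the most changed TUs began are shown first, because several of them share stretches of letters that played no part in the calls. Each TU window runs from 200 bases before to 100 bases after the deposited start, in the direction of transcription (RefSeq GRCm38, the build also called mm10). The first pair belongs to the antisense TU inside Top1, which had the smallest p of all TUs without a gene symbol, and to Platr11, a non-coding RNA of the pluripotency-associated transcript (Platr) group. Capitals mark a run of 21 bases that this pair shares, and a word of 16 bases that is in Platr11 and in the next pair. The next pair also shares letters beyond that word, which are not marked.
transcribed-unit_5226 (antisense in Top1, chr2:160656159-160656458, minus strand): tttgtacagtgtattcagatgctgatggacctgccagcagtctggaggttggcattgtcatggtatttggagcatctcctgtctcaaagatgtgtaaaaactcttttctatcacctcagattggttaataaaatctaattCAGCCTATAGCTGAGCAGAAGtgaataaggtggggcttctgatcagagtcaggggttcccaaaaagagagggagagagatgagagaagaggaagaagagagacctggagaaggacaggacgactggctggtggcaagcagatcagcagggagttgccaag
Platr11 (chr9:118406048-118406347, minus strand): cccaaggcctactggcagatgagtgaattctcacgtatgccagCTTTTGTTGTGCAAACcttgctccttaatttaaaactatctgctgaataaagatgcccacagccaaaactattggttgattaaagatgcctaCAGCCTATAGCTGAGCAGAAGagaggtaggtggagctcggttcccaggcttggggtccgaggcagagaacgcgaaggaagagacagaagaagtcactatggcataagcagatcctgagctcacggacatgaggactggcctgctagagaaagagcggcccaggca
Rsf1os1 (chr7:97647680-97647979, minus strand): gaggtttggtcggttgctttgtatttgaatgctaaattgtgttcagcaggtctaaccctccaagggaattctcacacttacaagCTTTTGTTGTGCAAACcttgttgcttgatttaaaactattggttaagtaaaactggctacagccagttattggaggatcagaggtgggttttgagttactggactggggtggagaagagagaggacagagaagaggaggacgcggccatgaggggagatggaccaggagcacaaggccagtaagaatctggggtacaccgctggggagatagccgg
transcribed-unit_36023 (antisense in Scaf8, chr17:3157016-3157315, minus strand): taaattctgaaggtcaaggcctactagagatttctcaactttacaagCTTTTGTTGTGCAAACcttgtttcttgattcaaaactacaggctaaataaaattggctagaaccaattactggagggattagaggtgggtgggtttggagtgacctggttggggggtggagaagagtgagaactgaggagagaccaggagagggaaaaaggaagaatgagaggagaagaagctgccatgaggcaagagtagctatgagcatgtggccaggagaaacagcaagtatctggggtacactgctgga

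Searched on both strands in the 500 bases before and the 500 after each tested start, the 21-base run was held by 2 of the 28459 TUs, the antisense TU of Top1 (transcribed-unit_5226) and Platr11. It began 60 and 65 bases before their starts. The word CTTTTGTTGTGCAAAC was held by 11 TUs, of which 5 were called down, against 0.787% of all tested TUs, and 9 had a log2 fold change below 0. The 5 called TUs, Platr11, Rsf1os1, transcribed-unit_5732, transcribed-unit_2453 and transcribed-unit_36023, lay on 5 chromosomes, and in each the word was on the transcribed strand and began 116 to 289 bases before the start. This word was picked because called TUs held it, so its count is a description and has no test. It holds the letters TGCAAA, which are also part of the octamer ATGCAAAT that POU factors bind, and binding was not measured here. In all 11 TUs the word lay wholly in bases that the reference marks as repeats.

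A second word was held by another set of decreased TUs, shown by the extragenic TU with the second smallest p among decreased TUs without a gene symbol and by one on chromosome X. Capitals mark the 16-base word. The windows of both TUs are also alike over longer stretches, which are not marked.
transcribed-unit_33864 (chr16:19035602-19035901, plus strand): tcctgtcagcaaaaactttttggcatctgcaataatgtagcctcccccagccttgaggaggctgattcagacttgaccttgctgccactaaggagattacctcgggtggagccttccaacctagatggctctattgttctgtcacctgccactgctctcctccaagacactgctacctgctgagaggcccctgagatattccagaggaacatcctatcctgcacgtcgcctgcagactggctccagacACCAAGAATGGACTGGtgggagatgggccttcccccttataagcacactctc
transcribed-unit_39962 (chrX:150147186-150147485, plus strand): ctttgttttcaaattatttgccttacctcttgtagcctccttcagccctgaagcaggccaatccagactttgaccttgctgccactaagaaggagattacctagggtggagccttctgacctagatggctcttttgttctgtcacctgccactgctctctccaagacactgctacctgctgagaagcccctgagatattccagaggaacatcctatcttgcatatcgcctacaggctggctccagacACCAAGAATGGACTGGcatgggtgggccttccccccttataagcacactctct

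The word ACCAAGAATGGACTGG was held by 11 TUs, of which 5 were called down and none up, against 0.787% and 0.527% of all tested TUs, and 10 had a log2 fold change below 0. The called ones were transcribed-unit_33864, transcribed-unit_23094, Nlrp4a, transcribed-unit_39962 and transcribed-unit_34476, and here the word lay after the start, at base 9 to base 478 of the TU. It too was picked from called TUs and lay in repeat sequence in all 11. Leaving out 1 library, after which the lone library of its group is assumed to vary like the other groups, ended the call of several holders of either word. Platr11, Rsf1os1, transcribed-unit_33864 and transcribed-unit_23094 kept theirs without each of the 4 libraries in turn, while transcribed-unit_39962 (adjusted p 0.055 to 0.11), transcribed-unit_2453 (0.10 to 0.11), transcribed-unit_34476 (0.076 to 0.39) and transcribed-unit_36023 (0.12 to 0.29) lost it in every case, by edgeR's quasi-likelihood test. Nlrp4a kept its call in 3 of the 4 cases and transcribed-unit_5732 in 1.

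At 0.5 hpd, 374 of the 28459 TUs, or 1.31%, differed from NT at an adjusted p under 0.05 (edgeR quasi-likelihood test, Benjamini-Hochberg adjustment over all tested TUs), and this is the background for every count below. Of these, 150 were up (0.527% of all tested) and 224 down (0.787%). These numbers rested on the fit and on each of the 4 libraries. With the replicate number as a block there were 524 increases and 596 decreases (genic 400 and 326). No label says that this number pairs libraries. With NT replicate 1 set aside there were 64 increases and 131 decreases, and with NT replicate 2 set aside 21 and 63. Setting aside 0.5 hpd replicate 1 gave 85 increases and 85 decreases, and setting aside 0.5 hpd replicate 2 gave 30 and 76. Genes were called in both directions in nearly equal numbers, with 125 of 14997 TUs with a gene symbol up (0.834%) and 122 down (0.813%). That balance moved with the fit, since DESeq2 called 173 genes up and 125 down, and edgeR without NT replicate 2 called 18 up and 45 down. Of 13462 transcripts without a gene symbol, 25 were up (0.186%) and 102 down (0.758%). Decreases made up 80.3% of the non-genic calls and 49.4% of the genic ones, with shares called down that were close in both classes and a lower share called up in the non-genic one. Non-genic calls up and down were 4 and 65, 3 and 18, 13 and 29, and 4 and 31 in the same order of libraries left out. Decreases were 59.9% of all calls here and 48.8% of those of DESeq2, which called 66 non-genic TUs down. DESeq2 gave no adjusted p to some TUs decreased here, such as transcribed-unit_1789, and its counts of calls leave these out. The median log2 fold change of called genes was 0.73 for those up and -0.83 for those down, against 1.00 and -1.44 for called non-genic TUs. Among decreased TUs, 41 of the 122 genic and 74 of the 102 non-genic ones fell more than 2-fold. With fewer fragments only larger changes can pass the threshold, so these sizes are not set against each other.

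**Figure D1:**
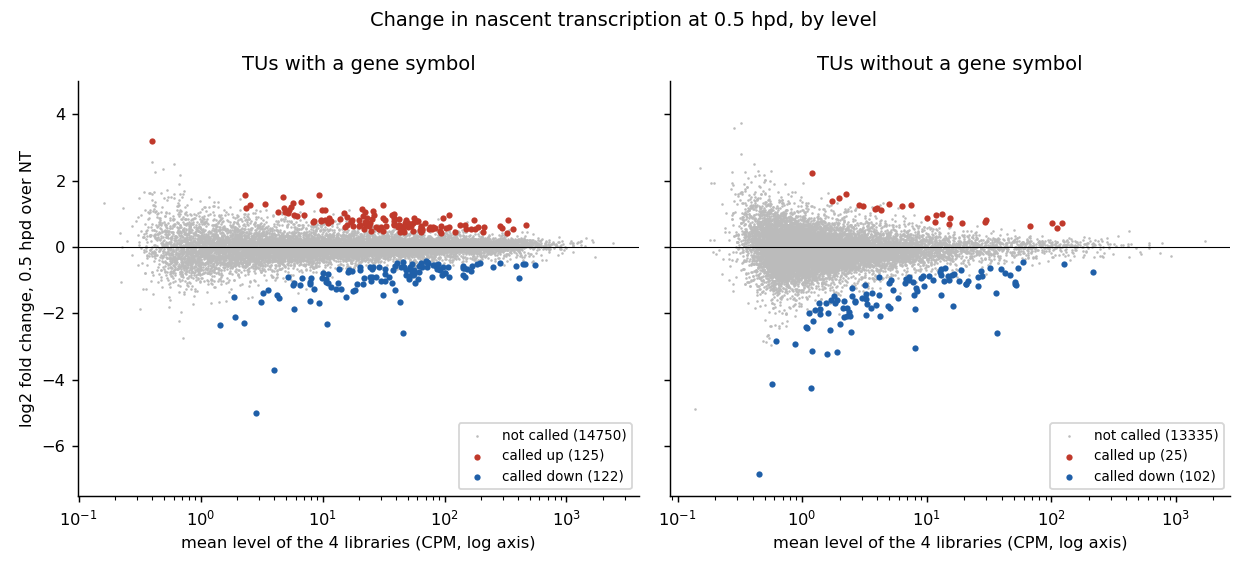
Log2 fold change at 0.5 hpd over NT against the mean level of the 4 libraries (CPM, log axis) for all 28459 tested TUs, split into TUs with a gene symbol (left) and without one (right). Grey points were not called, red points were called up (125 and 25) and blue points down (122 and 102), and on the right the blue points outnumber the red ones over most of the range of levels.

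Depth sets which changes could be seen, since genic TUs had a median of 353.4 fragments per library and non-genic ones 18.6. When TUs under a mean of 50 fragments were set aside after the fit on all 28459, 51 of 3021 non-genic TUs were down and 19 up, and 110 of 11938 genic TUs were down and 123 up. When the fit and the adjustment were repeated on those TUs alone, 39 non-genic TUs were down and 17 up, and 116 genic TUs were down and 150 up. Called TUs of 5 kb or less numbered 18 down and 0 up of 7504 tested, those over 20 to 50 kb 95 down and 76 up of 6123, those over 50 to 100 kb 22 down and 35 up of 2729, and those over 100 kb 3 down and 3 up of 1661. A TU was read whole, so that a change near the start of a long TU is diluted by the rest of its length. Of all tested TUs, 2736 had an unadjusted p under 0.05.

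The gene with the smallest p of all TUs was Klf2, a Krüppel-like factor of the naive pluripotency network. Klf2 (chr8:72318948-72329182, plus strand) stood at 76.9 and 79.1 CPM in the NT libraries and at 13.5 and 12.3 CPM at 0.5 hpd. Both depleted libraries were far below both NT libraries, at 16.7% of the NT mean, a log2 fold change of -2.58 ± 0.13 (SE, n = 2 a group, edgeR adjusted p = 1.3e-07).

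Platr11 (chr9:118392979-118406147, minus strand), whose start is printed above, read 17.03 and 19.1 CPM in NT and 3.59 and 3.68 CPM at 0.5 hpd (-2.31 ± 0.18, adjusted p = 1.9e-05). Zic5, a zinc-finger transcription factor, read 28.2 and 30.96 CPM in NT and 14.1 and 13 CPM at 0.5 hpd (-1.12 ± 0.13, adjusted p = 0.00057). For Platr11 and Zic5 the depleted libraries lay close together and below both NT libraries. Zic2, whose gene is the neighbour of Zic5 and is read from the other strand, fell alongside it by 1.11 on the log2 scale (adjusted p = 0.00066). Prdm14, a PR-domain regulator of the naive state and of germ cells, read 62.9 and 72.7 CPM in NT and 36.3 and 33.3 CPM at 0.5 hpd (-0.96 ± 0.11, adjusted p = 0.00040). Spp1, which encodes the secreted protein osteopontin, read 187 and 198 CPM in NT and 98.5 and 107 CPM at 0.5 hpd (-0.91 ± 0.10, adjusted p = 0.00049). Prdm14 and Spp1 thus stood at 51.5% and 53.4% of their NT means, with both depleted libraries below both NT libraries.

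The lowest called log2 fold change was that of an extragenic TU, transcribed-unit_34214, which held 12 and 12 fragments in NT and 0 in both depleted libraries, and its call was lost without any 1 of the 4 libraries (adjusted p 0.070 to 0.19). Among genes with a small p, the strongest proportional decreases were in weakly transcribed ones known by number. 6330410L21Rik went from 48 and 105 fragments in NT to 4 and 2 at 0.5 hpd, although the depleted library with 4 fragments was the deepest of all (-5.01 ± 0.56 on the log2 scale, adjusted p = 0.00040). Gm33006 went from 99 and 112 fragments to 14 and 7 (-3.69 ± 0.29, adjusted p = 1.9e-05). The NT libraries themselves differed by more than 2-fold in CPM for 6330410L21Rik, and the depleted libraries were below both. Other decreased genes among the 15 with the smallest p had log2 fold changes from -1.70 to -0.79. They were Panct2, a non-coding transcript linked to pluripotency, 2500002B13Rik, Gm41458, Mroh4, Aoah, which encodes an enzyme that removes acyl chains from bacterial lipopolysaccharide, Prickle2, a planar cell polarity protein, and Ubqln4, a ubiquilin that delivers proteins to the proteasome.

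**Figure D2:**
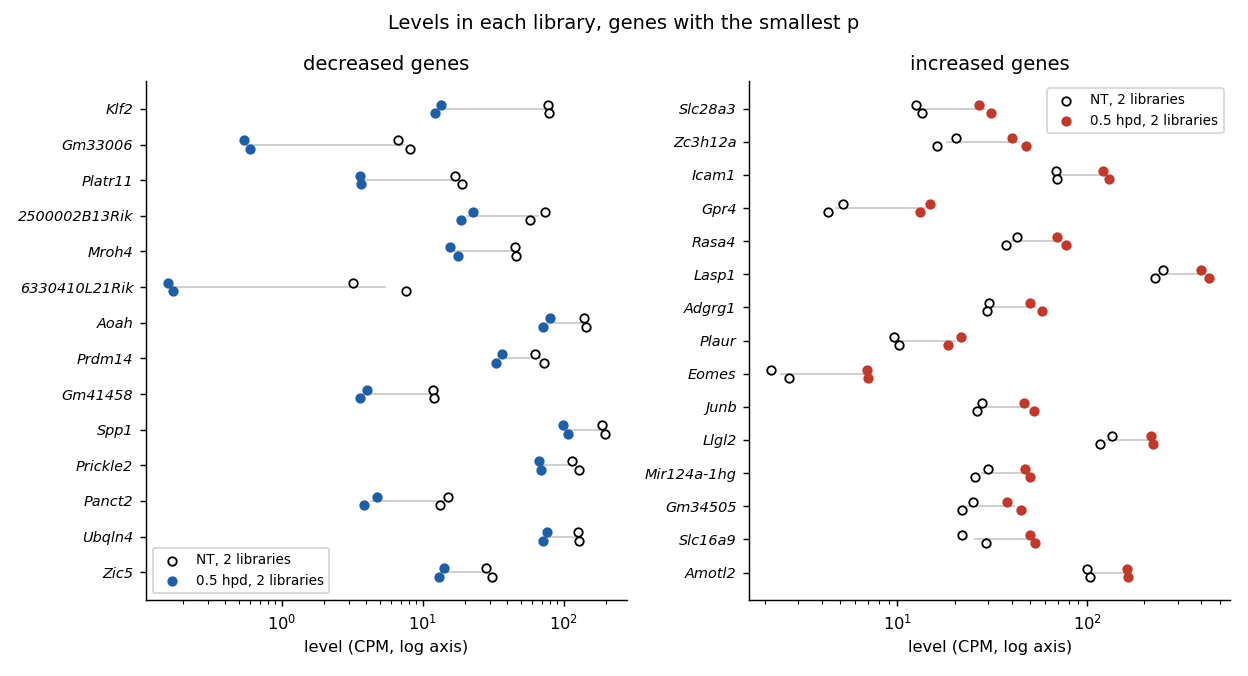
Levels (CPM, log axis) of decreased (left) and increased (right) genes among the 15 with the smallest p in each direction, one row per gene. Open circles are the 2 NT libraries, filled circles the 2 libraries at 0.5 hpd and grey lines join the group means, and genes were drawn only where both filled circles lie outside the range of the open ones. Klf2 and Slc28a3, with the smallest p in each direction, are at the top.

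The list of core and naive pluripotency genes leaned downward with few calls. Of 27 genes, 5 were called down, none up, and 24 had a log2 fold change below 0, with a median of -0.23 against -0.02 over all tested TUs. Among them were Klf2, Prdm14, Nr0b1 and Dppa5a. Nr0b1, an orphan nuclear receptor, read 22.4 and 29.9 CPM in NT and 10.5 and 10.9 CPM at 0.5 hpd (-1.29 ± 0.17, adjusted p = 0.0013), with the groups well apart. Dppa5a, an RNA-binding protein of pluripotent cells, read 32.98 and 38.8 CPM in NT and 18.5 and 19.7 CPM at 0.5 hpd, but its call was lost without NT replicate 2 or either depleted library (adjusted p up to 0.17). The factors that work closest with SOX2 were not called. Their log2 fold changes were -0.07 ± 0.11 for Pou5f1, which encodes OCT4, -0.18 ± 0.11 for Nanog, -0.14 ± 0.11 for Esrrb and -0.63 ± 0.17 for Klf4 (adjusted p = 0.095).

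Among 11 tested genes of the formative and primed state, 3 were called down, none up, and the median was -0.26. Another member, Dnmt3b, has no TU under its symbol, and the TU without a symbol that covers it, described below, was called up. Beside Zic5 and Zic2 the third was Otx2, a homeobox factor of the epiblast, at 8.48 and 9.23 CPM in NT and 4.098 and 5.302 CPM at 0.5 hpd (-0.94 ± 0.19). The Otx2 groups did not overlap, yet the call was lost without any 1 of the 4 libraries (adjusted p 0.057 to 0.31). Of 7 tested Sox family genes none was called, and the median of -0.01 turned positive without the count filter, with the 4 libraries alone, and without either NT library or 0.5 hpd replicate 1. Sox21 had the smallest p among them, with a log2 fold change of -1.06 ± 0.35 and an adjusted p of 0.21.

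Among genes that rose, Slc28a3, a nucleoside transporter, had the smallest p, at 12.5 and 13.4 CPM in NT and 26.9 and 31.3 CPM at 0.5 hpd (1.16 ± 0.13, adjusted p = 0.00040). Zc3h12a, an endoribonuclease that degrades inflammatory mRNAs, read 20.3 and 16.1 CPM in NT and 40.4 and 47.6 CPM at 0.5 hpd (1.26 ± 0.14, adjusted p = 0.00040). Icam1, an adhesion receptor for leukocytes, read 68.6 and 69.6 CPM in NT and 122 and 131 CPM at 0.5 hpd (0.87 ± 0.10, adjusted p = 0.00040). All 3 rose in both depleted libraries, with Icam1 the most even between replicates.

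Eomes, a T-box factor of trophoblast and early mesoderm, was weakly transcribed and rose the most on the log2 scale after Gpr4 among the 15 increased genes. It read 2.15 and 2.69 CPM in NT and 6.87 and 7.01 CPM at 0.5 hpd (1.52 ± 0.21, adjusted p = 0.0015). Gpr4, a receptor that senses protons, read 5.18 and 4.29 CPM in NT and 14.8 and 13.1 CPM at 0.5 hpd (1.56 ± 0.18, adjusted p = 0.00052). The remaining genes with the smallest p had log2 fold changes from 0.68 (Amotl2, which binds the growth regulator YAP) to 1.04 (Plaur, the urokinase receptor). Between them were Rasa4, a Ras-inactivating protein, Lasp1, an actin-binding protein, Adgrg1, an adhesion receptor, Junb, Mir124a-1hg, the host of a neuronal microRNA, Slc16a9, a transporter, and Llgl2 and Gm34505. Of these, Llgl2 and Gm34505 lost their calls without NT replicate 2 (adjusted p = 0.063 and 0.056). The other 13 kept theirs without each of the 4 libraries. Other markers of these lineages were not called. Of 5 tested trophoblast factors the other 4 were not called and 3 were below 0, with Tead4 at 0.45 ± 0.11. The summed trophoblast level was 232 and 205 CPM in NT and 272 and 281 CPM at 0.5 hpd, while the median log2 fold change was -0.19 and turned positive without the count filter, with a minimum mean of 50 fragments and without NT replicate 2. Of 5 tested mesoderm and endoderm markers Eomes was again the one called, 3 were below 0, and Foxa2 and T had no TU. Their median was -0.45 and turned positive without the count filter and with the minimum mean of 50 fragments. None of the 3 tested neural and 2 tested fibroblast markers was called.

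Signalling lists held small numbers of calls in both directions. In the LIF-STAT3 list of 13 genes, both receptor subunits were called down and 2 targets up, with a median of 0.26. Lifr, the LIF receptor, read 199 and 179.6 CPM in NT and 133 and 104 CPM at 0.5 hpd (-0.67 ± 0.12, adjusted p = 0.013). Il6st, which encodes the shared subunit gp130, read 221 and 216 CPM in NT and 169 and 138 CPM at 0.5 hpd (-0.51 ± 0.11, adjusted p = 0.037). Socs3, the feedback inhibitor of this pathway, went the other way, with 22.2 and 21.9 CPM in NT and 35.2 and 45.9 CPM at 0.5 hpd (0.87 ± 0.18, adjusted p = 0.029). Junb, an AP-1 subunit that STAT3 also induces, read 28 and 26.2 CPM in NT and 46.4 and 52.5 CPM at 0.5 hpd (0.86 ± 0.12, adjusted p = 0.0015). Junb kept its call without each of the 4 libraries, whereas Lifr, Il6st and Socs3 each kept theirs in 1 of the 4 cases (adjusted p up to 0.12, 0.31 and 0.24).

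FGF-ERK feedback genes, in cells that grew with a MEK inhibitor in all groups, had 2 of 11 called up, none down and a median of 0.11. These were the Sprouty genes Spry2 (62.2 and 71.4 CPM in NT, 91.9 and 109 CPM at 0.5 hpd, 0.58 ± 0.12) and Spry4 (2.09 and 4.36 CPM in NT, 7.22 and 9.07 CPM at 0.5 hpd, 1.33 ± 0.29). Fgfr1 of this list likewise has no TU of its own symbol and is covered by one called up. Nodal and BMP targets had 3 of 14 called up, none down and a median of 0.21. These were Id1 (1.12 ± 0.23) and Id2 (1.20 ± 0.26), which block basic helix-loop-helix factors, and the inhibitory Smad6 (0.56 ± 0.11). None of the 5 held without each library, since Id1 lost its call without any 1 of the 4 libraries (adjusted p 0.051 to 0.22) and Spry2, Spry4, Id2 and Smad6 kept theirs in 1 of the 4 cases (up to 0.22, 0.27, 0.25 and 0.22).

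Among 17 tested genes of the NF-kB list, Zc3h12a and Icam1 were called up, none down, and the median was 0.14. The pathway's own feedback inhibitor Nfkbia was not called, at -0.11 ± 0.18. Of 13 immediate early genes, Junb and Atf3 were called up, none down, and the median was 0.38, with Fos at 0.57 ± 0.39 and Jun at 0.49 ± 0.46 not called. Atf3, a stress-induced factor, lost its call without any 1 of the 4 libraries (adjusted p 0.056 to 0.34). In the Wnt list of 12 genes, the secreted inhibitor Notum was called down, from 8.35 and 9.81 CPM in NT to 2.11 and 2.99 CPM at 0.5 hpd (-1.88 ± 0.23, adjusted p = 0.00064), while Axin2 stood at 0.39 ± 0.13. The Wnt median was 0.03 and fell just below 0 with library totals as the scale.

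In the cholesterol synthesis pathway 19 of 21 genes had a log2 fold change above 0, with a median of 0.34, and 1 was called. Hmgcs1, the enzyme that makes HMG-CoA, read 143 and 127 CPM in NT and 211 and 183 CPM at 0.5 hpd (0.55 ± 0.13, adjusted p = 0.045). That call was lost without any 1 of the 4 libraries (adjusted p 0.057 to 0.37). The sterol-responsive gene Insig1 (0.37 ± 0.12) was not called, and neither was any other of the 16 tested members of that list (median 0.20). Of 11 YAP and SRF targets Amotl2 was called up and none down (median 0.13), with Ctgf at -0.43 ± 0.19 and not called. No member was called of 12 p53 targets (median 0.09), 12 heat shock genes (median 0.03, below 0 without NT replicate 1 or 0.5 hpd replicate 2) and 12 genes of the amino acid and ER stress response. In the last of these 11 of 12 were below 0, with a median of -0.27 and Asns, asparagine synthetase, at -0.45 ± 0.11 (adjusted p = 0.057).

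Transcripts without a gene symbol were called down in every class of position. Of 7793 extragenic TUs 59 were called down and 12 up, of 2831 antisense TUs within gene bodies 20 down and 8 up, of 2244 antisense at a transcription start 15 down and 2 up, and of 594 antisense at a transcript end 8 down and 3 up. These counts are to be read against the 0.758% down and 0.186% up of all non-genic TUs. A TU without a symbol is not always outside genes. Of the 13462, 360 covered at least 50% of a protein-coding gene on the same strand, and 5 of these were called. They included transcribed-unit_3649 on Dnmt3b, a DNA methyltransferase of the formative state, up by 0.63 ± 0.10, and transcribed-unit_17790 on Fgfr1, an FGF receptor, up by 0.57 ± 0.10. Both kept their calls in 1 of the 4 cases with a library left out (adjusted p 0.026 to 0.077 and 0.026 to 0.074).

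**Figure D3:**
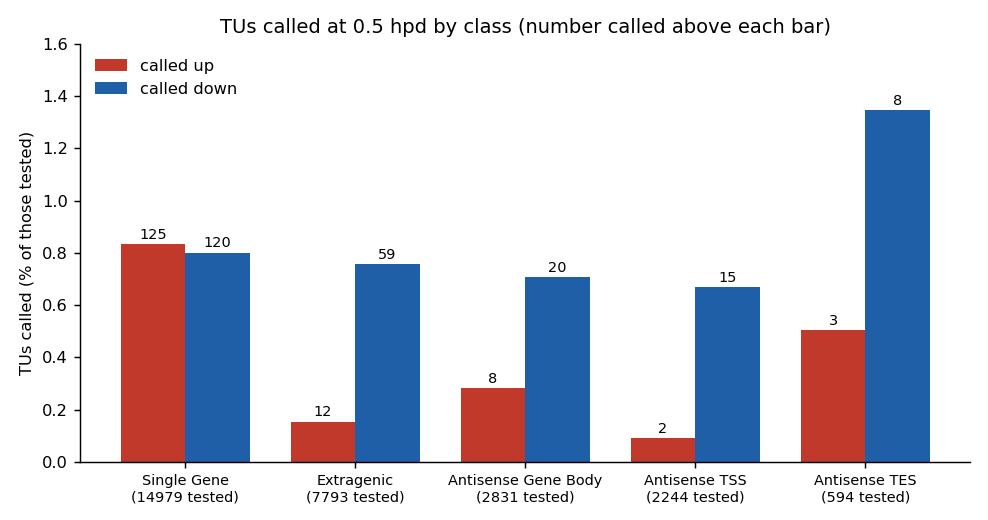
Share of tested TUs called up (red) and down (blue) at 0.5 hpd, in percent, for single genes and the 4 non-genic classes (TSS, transcription start site, and TES, transcription end site), with the number called above each bar. In the non-genic classes the blue bar is higher than the red one, while for single genes they are nearly equal (125 and 120).

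The non-genic decrease with the smallest p was transcribed-unit_5226 (chr2:160637513-160656258, minus strand), which starts inside Top1, runs against it and crosses its start. It read 65.2 and 61.3 CPM in NT and 11.2 and 9.49 CPM at 0.5 hpd, or 16.5% of the NT mean, a change as deep as that of Klf2 (-2.60 ± 0.14, adjusted p = 1.8e-07). The extragenic transcribed-unit_33864 (chr16:19035801-19053779, plus strand), in which the second shared word begins at base 49, read 26.9 and 23.5 CPM in NT and 8.16 and 6.41 CPM at 0.5 hpd (-1.76 ± 0.17, adjusted p = 0.00014). transcribed-unit_20265, antisense at the start of Hcrtr2, read 47.5 and 55.6 CPM in NT and 20.4 and 18.99 CPM at 0.5 hpd (-1.38 ± 0.13, adjusted p = 0.00014). Hcrtr2, an orexin receptor, read 1.48 and 1.89 CPM in NT and 1.05 and 1.11 CPM at 0.5 hpd and was not called.

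Other extragenic transcripts fell as well. transcribed-unit_14836, which ends 2.06 kb from Eps8, read 65.5 and 72.3 CPM in NT and 34.5 and 31.5 CPM at 0.5 hpd (-1.06 ± 0.11), and Eps8 was not called (-0.16 ± 0.13). transcribed-unit_23620, 9.33 kb from the cytokine signalling inhibitor Socs2, read 38.4 and 33.6 CPM in NT and 16 and 15.9 CPM at 0.5 hpd (-1.17 ± 0.13). Socs2 went from 80.2 and 80.01 to 60.8 and 59.4 CPM, the smallest change of all calls (-0.41 ± 0.09, adjusted p = 0.043), and lost its call without any 1 of the 4 libraries (adjusted p 0.15 to 0.26). transcribed-unit_4491, 8.70 kb from the sodium channel gene Scn3a, held 122 and 277 fragments in NT and 39 and 24 at 0.5 hpd, with the NT libraries apart by more than 2-fold in CPM. Increased non-genic TUs were fewer. transcribed-unit_8026 (chr4:117328414-117405147, plus strand), within the span of Gm40231 on the other strand, read 76.7 and 74.9 CPM in NT and 118 and 134 CPM at 0.5 hpd (0.73 ± 0.10, adjusted p = 0.0015). It is the 1 of the 25 increased non-genic TUs that kept its call without each of the 4 libraries, against 17 of the 102 decreased ones, while DESeq2 also called 21 of the 25 and 64 of the 102.

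Genes overlapped by decreased antisense TUs leaned downward, and most were not called. Of 43 antisense TUs called down, 37 overlapped a tested gene on the opposite strand, and of these hosts 5 entries (4 genes) were called down and none up. The hosts had a median log2 fold change of -0.25, with 29 below 0. Over all 4602 antisense TUs with a tested host, 55 hosts were called down, 71 up and 1910 were below 0, and the median was 0.03. At Top1, which encodes topoisomerase I, the gene read 253 and 223 CPM in NT and 293 and 232 CPM at 0.5 hpd (0.14 ± 0.15, adjusted p = 0.88) while its antisense TU fell by 2.60 on the log2 scale. At Suv39h1, a histone H3 lysine methyltransferase, the antisense transcribed-unit_39480 went from 71.2 and 69.3 CPM to 34.6 and 30.8 CPM (-1.10 ± 0.12, adjusted p = 0.00040). Suv39h1 itself read 42.9 and 38.9 CPM in NT and 43.6 and 42.5 CPM at 0.5 hpd (0.08 ± 0.10), with overlapping groups. The genes called down together with their antisense TU were Eif4e2, Ly6e, Cnpy1 and Mib2. Of these antisense TUs, transcribed-unit_1789 in Eif4e2 had an adjusted p of 0.00068 (edgeR quasi-likelihood test). The others, among them transcribed-unit_10327 at Cnpy1 (0.030) and transcribed-unit_1788 at Eif4e2 (0.048), were nearer the threshold, at 0.022 to 0.048. Eif4e2 and Cnpy1 kept their calls without each of the 4 libraries, while Ly6e (adjusted p 0.0501 to 0.35) and Mib2 (0.11 to 0.26) lost theirs in every case, as did the antisense TUs of these last genes. Of 13 antisense TUs called up, 9 had a tested host, and the polarity gene Llgl2 was the one called, also up. Some TUs of the antisense classes cover a protein-coding gene on their own strand and are counted here. They are transcribed-unit_20051 (Stoml1, down), transcribed-unit_17790 (Fgfr1, up) and transcribed-unit_19889 (Jaml, up).

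**Figure D4:**
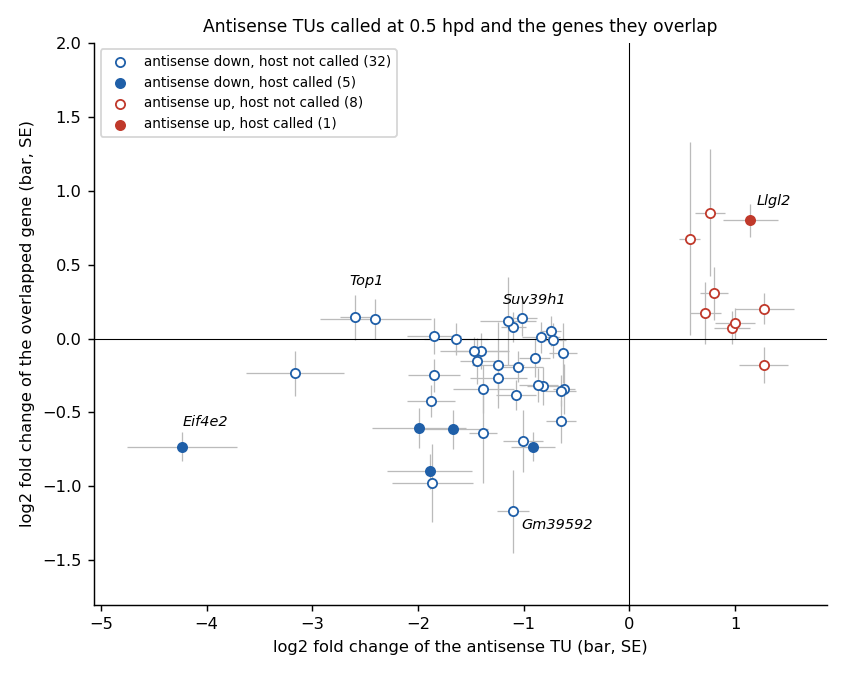
Log2 fold change at 0.5 hpd of each called antisense TU (horizontal axis) against that of the gene it overlaps on the other strand (vertical axis), with SE bars. Filled points are hosts called in the fit (5 with a decreased and 1 with an increased antisense TU), and the open blue points reach on the vertical axis from just above 0, where Top1 and Suv39h1 lie, down to Gm39592.

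Where called TUs lay near each other, most had the same direction. Joining called TUs less than 50 kb apart gave 335 loci, 34 of them with at least 2 TUs, of which 26 had all members down, 6 all up and 2 mixed. The mixed ones were Cntn2 (up) with transcribed-unit_1999 (down) and Rab11fip1 (up) with Adrb3 (down), and each of these lost its call without any 1 of the 4 libraries (adjusted p up to 0.34). A gene called down lay within 50 kb of 15 of the 102 decreased non-genic TUs, or 14.7% (95% Wilson interval 9.12 to 22.9, counting error only), and of 1.78% of all tested non-genic TUs. For the 25 increased ones and genes called up the values were 12% (4.17 to 29.96) and 2.23%, and with a distance of 100 kb they were 24% (11.5 to 43.4) and 3.25%. Overlapping TUs share their position, and these shares have no test.

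The Prdm14 locus held 3 decreased TUs, the gene, transcribed-unit_62 on the other strand (-1.11 ± 0.15) and the extragenic transcribed-unit_1297 (-1.34 ± 0.25). Downstream of Klf2, transcribed-unit_18089 (chr8:72333782-72336765, plus strand) held 17 and 12 fragments in NT and 2 and 3 at 0.5 hpd (-2.82 ± 0.60, adjusted p = 0.035). It begins past the end of the Klf2 TU on the same strand, so that read-through from Klf2 and a transcript of its own cannot be told apart, and its call was lost without any 1 of the 4 libraries (adjusted p 0.070 to 0.48). At Notum, transcribed-unit_25443 on the other strand fell with the gene (17 and 25 fragments in NT and 4 and 3 at 0.5 hpd). Near Lifr, the extragenic transcribed-unit_32855 was called down (-1.17 ± 0.25). The calls of transcribed-unit_25443 and transcribed-unit_32855 were each kept in 1 of the 4 cases with a library left out (adjusted p up to 0.19 and 0.37), and that of transcribed-unit_1297 in 2 (up to 0.22). At Eif4e2, which encodes a cap-binding protein, 2 antisense TUs were called down, and transcribed-unit_1789 went from 31 and 31 fragments to 2 and 2. Some pairs were neighbouring or overlapping genes, such as Slco4c1 with Panct2, Sap30 with 2500002B13Rik, Lamtor2 with Ubqln4 and Ssr2, and Athl1 with Ifitm2 and Ifitm1. Increased neighbours were Caskin2 with Llgl2, and Plaur with Cadm4. Of these, Athl1 lost its call without any 1 of the 4 libraries, Sap30, Ifitm1, Caskin2 and Cadm4 kept theirs in 1 case and Slco4c1 and Ssr2 in 2 (adjusted p up to 0.40 for Ifitm1). Platr11 (down) and Eomes (up) lay 72.1 kb apart.

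Platr11 was not typical of its group. Of 16 genes whose symbols start with Platr, 14 were tested, 3 were called down and 1 up, and the median was -0.03. Platr10 fell from 98.7 and 108 to 55.8 and 55.7 CPM (-0.89 ± 0.14, adjusted p = 0.0052), and Platr9 from 3.77 and 5.596 to 1.33 and 1.71 CPM (-1.66 ± 0.29, adjusted p = 0.0082). Platr22 rose from 13.7 and 18.7 to 27.9 and 31.6 CPM (0.87 ± 0.16, adjusted p = 0.012). Platr11 kept its call without each of the 4 libraries. Platr10 lost its call without NT replicate 2 (adjusted p = 0.099), Platr9 without NT replicate 2 or 0.5 hpd replicate 1 (0.14 and 0.13) and Platr22 without NT replicate 1 or 0.5 hpd replicate 2 (0.12 and 0.079). The other 10 ranged from -0.71 (Platr6, adjusted p = 0.063) to 0.14 (Platr21).

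Promoters of genes were searched for letters that SOX, POU and AP-1 factors bind. The 250 bases before the annotated start are shown for Klf2, the gene with the smallest p, for Eif4e2, whose gene and antisense TUs fell together, and for Plaur, an increased gene. For Plaur these bases lie inside the deposited TU, which starts at chr7:24454355, and so not before its measured start. Capitals mark the SOX core CATTGT (either strand), the octamer ATGCAAAT and the AP-1 motif TGACTCA.
Klf2 (chr8:72318812-72319061, plus strand, no match): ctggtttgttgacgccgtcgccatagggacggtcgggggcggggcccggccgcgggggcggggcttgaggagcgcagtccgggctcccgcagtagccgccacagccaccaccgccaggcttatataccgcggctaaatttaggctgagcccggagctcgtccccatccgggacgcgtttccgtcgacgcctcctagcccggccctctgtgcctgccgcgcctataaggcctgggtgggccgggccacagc
Eif4e2 (chr1:87213689-87213938, plus strand): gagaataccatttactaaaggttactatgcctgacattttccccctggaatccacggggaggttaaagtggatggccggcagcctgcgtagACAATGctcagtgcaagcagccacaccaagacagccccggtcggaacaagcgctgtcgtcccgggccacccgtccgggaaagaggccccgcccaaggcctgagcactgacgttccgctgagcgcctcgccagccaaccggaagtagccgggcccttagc
Plaur (chr7:24462233-24462482, plus strand): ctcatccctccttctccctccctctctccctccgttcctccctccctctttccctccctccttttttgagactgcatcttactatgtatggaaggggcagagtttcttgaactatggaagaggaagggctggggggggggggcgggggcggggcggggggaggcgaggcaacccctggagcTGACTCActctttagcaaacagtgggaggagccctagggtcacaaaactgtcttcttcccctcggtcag

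Of the 14997 genic TUs, 10896 were matched by symbol to a promoter in RefSeq (GRCm38.p6). For 7674 of these (70.4%) the annotated start lay within 1000 bases of the TU start, and for the rest it lay further away. CATTGT, read on both strands, was in 9 of 82 promoters of genes called down (10.98%), 4 of 97 of genes called up (4.12%), 6.33% of tested genes and 10.7% of all promoters in the table. The 9 included Eif4e2, Gm33006, Slco4c1 and Gpa33. The octamer was in 1 promoter of a gene called down (Gm20939), in none called up, in 1.47% of tested genes and in 1.6% of all promoters. TGACTCA was in 5 called up (5.15%), 4 called down (4.88%), 3.12% of tested genes and 4.46% of all promoters, and the kappa-B motif in 7 (7.22%), 9 (10.98%), 8.73% and 7.25%. Within 1000 bases on either side of the TU start, CATTGT was in 70.6% of decreased non-genic TUs, 52.0% of increased ones and 61.5% of all tested non-genic TUs, and the octamer in 8.82%, 12% and 11.7%. For genes CATTGT was in 54.1% of decreased, 45.6% of increased and 52.6% of all tested TUs, and the octamer in 16.4%, 6.4% and 8.87%. A SOX core directly before an octamer, with at most 1 base between, was within 1000 bases of the start of 1 tested TU, which was not called. These are matches of letters without a test, and enhancers away from the start were not searched.

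The later libraries give the levels of these TUs at 1, 2 and 6 hpd. All time points are set against the same NT libraries, which also took part in choosing the TUs and favour counts in the chosen direction, so levels are given without a test. All 224 decreased TUs lay below both NT libraries in both libraries at 1, 2 and 6 hpd, as did 26.7%, 26.6% and 31% of all tested TUs. The median level of the decreased genes was 56.2% of the NT mean at 0.5 hpd and 43.2%, 39.9% and 43.3% at 1, 2 and 6 hpd. For decreased non-genic TUs it went lower, from 36.5% to 23.6%, 20.6% and 15.02%. Of the 150 increased TUs, 150, 130 and 103 lay above both NT libraries at 1, 2 and 6 hpd, against 22.9%, 22.7% and 27.5% of all tested TUs, and their median level was 169% of NT at 0.5 hpd, then 176%, 152% and 131%.

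Klf2 had similar mean levels of 6.87, 6.05 and 6.51 CPM at 1, 2 and 6 hpd, whereas the antisense TU of Top1 (transcribed-unit_5226) went from 11.2 and 9.49 CPM at 0.5 hpd to means of 2.49, 1.45 and 0.666 CPM. Aoah, at 80.4 and 70.9 CPM at 0.5 hpd, had far lower means later, at 21.5, 9.39 and 8.86 CPM. Prdm14 ended near its level at 0.5 hpd, with means of 24.5, 27.7 and 32.1 CPM. Among increased genes, Slc28a3 remained high (38.8, 37.3 and 37.4 CPM), Zc3h12a (44.6, 27.6 and 18.6 CPM) and Icam1 (124, 98.2 and 69.5 CPM) were back at the NT level by 6 hpd, and Junb was below it (42.2, 24.6 and 15.3 CPM). Eomes had means of 7.52, 8.405 and 3.33 CPM and was highest at 2 hpd.

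**Figure D5:**
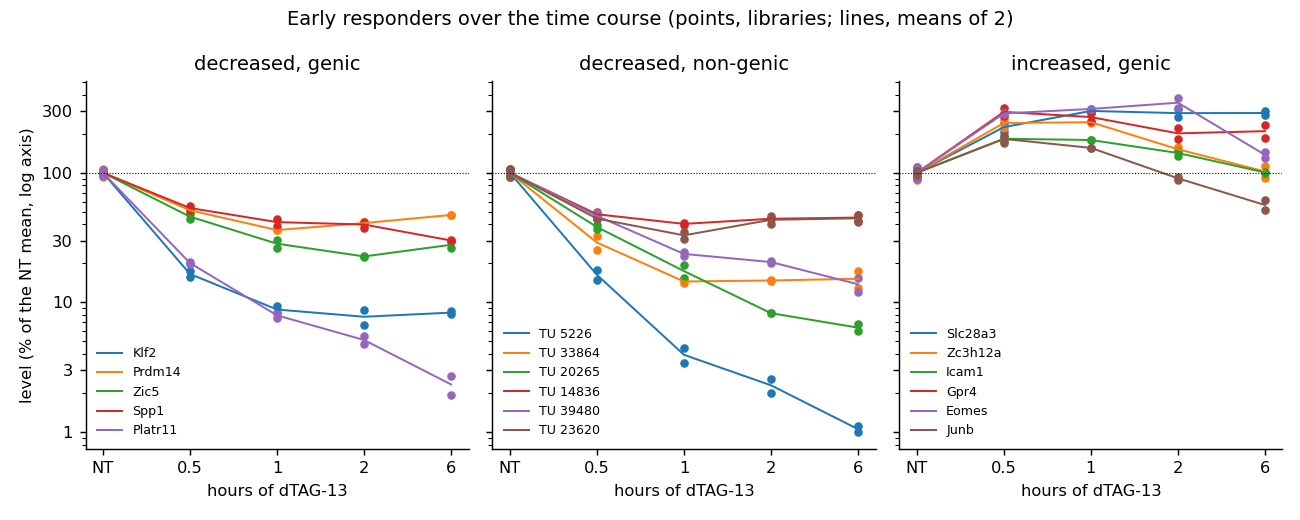
Level at NT and after 0.5, 1, 2 and 6 h of dTAG-13 as percent of the NT mean (log axis) for 5 decreased genes, 6 decreased non-genic TUs (labelled TU with their number) and 6 increased genes, with points for libraries and lines through the means of 2. The decreased TUs remain below the dotted line at 100 in all later libraries, while Zc3h12a and Icam1 return to it by 6 h and Junb falls below it.

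At the edge of the threshold, transcribed-unit_31374 (log2 fold change -0.94, down) and Fabp3 (0.82, up) were just inside with an adjusted p of 0.0499 by edgeR's quasi-likelihood test. Just outside were transcribed-unit_33235 (-1.40, adjusted p = 0.0502) and transcribed-unit_19671 (-0.60, adjusted p = 0.0503). Without each of the 4 libraries in turn, 49 of the 224 decreased and 14 of the 150 increased TUs passed the threshold every time, while DESeq2 also called 175 of the 224 and 142 of the 150. TUs to which DESeq2 gave no adjusted p counted as not called by it. The difference between directions was not tested.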

How the data were processed

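TT_chem-seq fragments were counted over TUs in 10 libraries, 5 groups of 2, and groups were taken from the sample titles. Per the methods of the study, with versions from the submitters' processing notes, the authors used BWA 0.7.17-r1188 for alignment to mm10, SAMtools 1.10 for a filter on mapping quality and Picard 2.12.0 for duplicates, and separated the strands. They segmented the pooled libraries of each strand into TUs with a hidden Markov model and associated TUs with RefSeq genes. TUs were thus not defined on NT or 0.5 hpd alone. Fragments in repeats that align to several places would be lost at the mapping filter. The authors deposited unscaled fragment counts for each TU, which were used as they are, and the deposited positions of TUs were read as base pairs with the start counted from 0. The class of each TU was taken from the deposited features.

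Counts were fitted in edgeR 4.0.16 (R 4.3.3) on all 10 libraries, with a mean for each group and TMM normalization, and 0.5 hpd was tested against NT with the quasi-likelihood F-test and Benjamini-Hochberg adjustment over 28459 TUs. The 12320 TUs left out held 0.316% of the fragments. The SE is the size of the log2 fold change over the square root of F. The biological coefficient of variation was 10.0%. Depth, at 11131490 to 25854106 fragments per library, sets the precision, and replicates differed by more than counting error (chi-square per degree of freedom 4.57 in NT and 6.73 at 0.5 hpd). The fit was also run on counts simulated from its own means and dispersions, without effects shared by replicates. Such counts cannot show whether the calls in these data hold. The TUs, gene lists and 16-base words described were chosen with earlier results of these data known. Named were, per direction, the 15 genic and 10 non-genic TUs with the smallest p among called TUs with both depleted libraries outside the NT range, which 34.6% of all TUs did, besides the genes the study discusses, called list members and nearest genes. The words are 16-base stretches held within 500 bases of the start by at least 4 TUs called down and called down in at least 40% of holders, in sets without a shared called TU. Alternatives were RLE factors, library totals, testing without a count filter, a minimum mean of 50 fragments, the 4 libraries alone, the replicate number as a block, DESeq2 1.42.0, each library left out and other neighbour distances. Single values of some genes are not reported here, although counts and medians include them. Reference sequence was RefSeq GRCm38.p6.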

Additional observations from a re-analysis of the deposited data

How the results depend on the processing

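The number of TUs called rested on the 4 libraries more than on scaling. With 1 library left out at a time, over all 10, calls up ranged from 21 to 221 and calls down from 63 to 286 (genic 18 to 188 up and 45 to 161 down, non-genic 3 to 33 up and 18 to 125 down). There were 64 up and 131 down when NT replicate 1 was left out, 21 and 63 for NT replicate 2, 85 and 85 for 0.5 hpd replicate 1, and 30 and 76 for 0.5 hpd replicate 2, so that decreases made up 67.2%, 75%, 50% and 71.7% of calls against 59.9% with all libraries. The replicate number as a block gave 524 up and 596 down (genic 400 and 326, non-genic 124 and 270), or 53.2% down. Nothing in the labels says that a number pairs libraries, and there were 2 numbers, each with 1 library in each of the 5 groups. Deviations of same-numbered libraries correlated at 0.25 between NT and 0.5 hpd and at 0.074 to 0.29 over all pairs of groups. With no pairing stated, the block is given as a description. DESeq2 called 66 and a minimum mean of 50 fragments 39 non-genic TUs down, with 48.8% and 48.1% of all calls down, and library totals gave 65.2% down. Of 70 named called TUs, 65 to 70 stayed called in the same direction with the other scalings, no count filter, the 4 libraries alone or the block, 62 of the 65 tested did so with a minimum mean of 50 fragments and 69 of 69 by DESeq2, and 45 to 58 of the 70 did so when 1 of the 4 libraries compared was left out. Log2 fold changes that changed sign belonged to TUs that were not called. With 1 library left out they ranged for Hspa8 (-0.019 to 0.34), Gm31288 (-0.17 to 2.16), Gm40231 (-0.0021 to 0.26), Top1 (-0.035 to 0.31), Platr7 (-0.0075 to 0.30), Platr21 (-0.24 to 0.41), Platr4 (-0.083 to 0.29), Platr20 (-0.0039 to 0.10), Platr27 (-0.12 to 0.061), Platr14 (-0.072 to 0.038), Platr3 (-0.11 to 0.081), Sox2 (-0.11 to 0.11) and Commd7 (-0.10 to 0.086). Sox2 was 0.0059 with the 4 libraries alone, and Commd7 was 0.0026, 0.0074, 0.013 and 0.0013 with RLE factors, the 4 libraries alone, the replicate block and DESeq2. TU-start windows of 1000 bases, the 16-base words and the adjacent SOX core and octamer were chosen after seeing the data. Fragment depth limits what can be seen in non-genic TUs, of which the median held 18.6 fragments per library.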

Other observations

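Several called genes belong to none of the lists. Ifitm1 and Ifitm2, interferon-induced membrane proteins that are transcribed in germ cells and stem cells, were called down together with their neighbour Athl1, which overlaps Ifitm2 (log2 fold changes -1.05 ± 0.24, -1.02 ± 0.15 and -0.92 ± 0.18). Ifitm2 lost its call without NT replicate 2 (edgeR adjusted p = 0.051), Ifitm1 kept its call in 1 of the 4 cases with a library left out (up to 0.40), and Athl1 lost its call in every case (0.0501 to 0.22). Lamtor2, a subunit of the complex that anchors mTORC1 to lysosomes, was called down by -1.08 ± 0.14, but its TU spans that of Ubqln4 on the other strand. Slco4c1, an organic anion transporter, fell beside Panct2, with which it shares its start region on the other strand (-1.25 ± 0.20), and kept its call in 2 of the 4 cases. Mybl2, a cell cycle transcription factor, was called down by -0.51 ± 0.11, near a decreased antisense TU in Ift52, transcribed-unit_5238. Both lost their calls without any 1 of the 4 libraries (edgeR adjusted p 0.11 to 0.24 and 0.074 to 0.43).

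Starts of decreased TUs lay among more bases that the reference marks as repeats, by their medians. In the 1000 bases around the start, the median share of such bases was 33.3% for decreased, 23.8% for increased and 27.9% for all tested non-genic TUs, and 14.95%, 10.4% and 10.2% for genic ones. These medians have no test.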
